A study of Mus musculus with 2 samples.

Results

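The glycolytic enzymes Hk1, Hk2, Pfkl, Aldoa, Tpi1, Gapdh, Pgk1, Pgam1, Eno1 and Ldha were examined in the mammary gland after deletion of Gata3, a transcription factor of the luminal epithelium. The set was built around Gapdh and was thus selected on measured values, the negative mean ratios of the 30 Gapdh features on both arrays. Its members were all features whose symbol in the platform annotation was one of these names. This rule found 40 of the 38976 features, standing for 8 of the 10 listed genes. Eno1 and Ldha had no feature under their symbol or Entrez ID and were not analysed here. Since the ratios of this comparison chose the set, they are described without a test.

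The arrays compared adult GATA-3flox/flox; WAP-rtTA-Cre mice (null) with GATA-3flox/+; WAP-rtTA-Cre mice (het). Both genotypes carried WAP-rtTA-Cre and received doxycycline for 5 days, so the het glands were also treated and also had 1 floxed allele. The Wap promoter drives the transgene in mammary epithelial cells, while total RNA came from the whole gland. There were 2 arrays, each with null RNA in Cy3 and het RNA in Cy5, and 0 with exchanged dyes. Nothing in the labels tells whether separate animals were hybridised, so the spread between them may be technical. In bulk RNA of this kind, fewer cells of a type and less RNA per cell cannot be told apart.

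Each value is a log ratio between the channels, read as log2. Which channel was the numerator was not stated. With Cy5 (het) over Cy3 (null), a negative ratio stands for more RNA in the null gland, and with the reverse for more RNA in the het gland. Signs are therefore given as deposited. Gata3 itself, with 1 feature, had ratios of 1.60 (array 1) and 0.20 (array 2) (mean 0.90 ± 0.98, SD, n = 2; limma adjusted p = 0.188 over features), and the place of its probe relative to the deleted part is not given. The ratios of all features had a median of -0.00 and an SD of 0.67 on array 1, and a median of -0.03 and an SD of 0.44 on array 2. Spot intensities were not used here, so the tissue could not be checked by the level of marker genes.

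Glycolysis splits glucose into pyruvate in the cytosol. Hexokinases trap glucose as glucose 6-phosphate, phosphofructokinase commits it to the pathway, aldolase and triose phosphate isomerase yield glyceraldehyde 3-phosphate, and GAPDH, phosphoglycerate kinase, phosphoglycerate mutase, enolase and pyruvate kinase recover ATP and NADH. In the mammary gland glucose also feeds the synthesis of lactose and milk fat. Several of these genes, Gapdh above all, are used as internal standards for RNA measurements, and several are known targets of the hypoxia-inducible factor HIF-1, whose core recognition sequence includes ACGTG.

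The upstream sequences of the measured members with the most negative mean ratio, Gapdh, and the most positive mean ratios, Hk2 and Pgk1, are shown. They were picked by these means, so that the ends of the range can be compared. Each is the 250 bases before the annotated start, from RefSeq on GRCm38.p6, written 5′ to 3′ on the strand of the gene, with ACGTG or its reverse complement CACGT in capitals. The window of Gapdh lies at chr6:125165774-125166023 on the minus strand, that of Hk2 at chr6:82774455-82774704 on the minus strand, and that of Pgk1 at chrX:106186850-106187099 on the plus strand.
Gapdh: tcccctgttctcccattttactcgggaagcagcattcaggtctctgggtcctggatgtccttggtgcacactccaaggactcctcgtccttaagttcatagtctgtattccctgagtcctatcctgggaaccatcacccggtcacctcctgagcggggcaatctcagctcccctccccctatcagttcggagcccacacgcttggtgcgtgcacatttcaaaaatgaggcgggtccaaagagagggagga
Hk2: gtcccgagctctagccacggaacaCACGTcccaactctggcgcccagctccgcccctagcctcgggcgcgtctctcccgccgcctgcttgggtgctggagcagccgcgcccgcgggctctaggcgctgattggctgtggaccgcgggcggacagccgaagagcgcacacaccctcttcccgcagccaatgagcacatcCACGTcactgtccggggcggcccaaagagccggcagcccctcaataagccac
Pgk1: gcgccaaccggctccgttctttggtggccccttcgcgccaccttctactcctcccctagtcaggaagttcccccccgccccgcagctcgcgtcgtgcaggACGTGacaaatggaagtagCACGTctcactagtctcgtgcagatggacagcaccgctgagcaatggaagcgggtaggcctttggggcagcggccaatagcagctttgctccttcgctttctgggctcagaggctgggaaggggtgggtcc

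The window of Gapdh held 0 copies of ACGTG on either strand. That of Hk2 held 2, beginning 226 and 52 bases before the start, and that of Pgk1 held 2, beginning 150 and 131 bases before it. All 10 listed genes matched the table by symbol, with 16 windows in all because several have more than 1 annotated start. Members with ACGTG in at least 1 window numbered 5 of 10, namely Hk2, Aldoa, Pgk1, Pgam1 and Ldha, against 18.49% of all 27025 genes in the table. A gene with more windows has more places for a match. By window, 6 of 16 held ACGTG, against 16.57% of all 32851 windows, and 2 of the 6 were overlapping windows of Aldoa with the same site. Measured members with the motif had gene means of both signs, positive on both arrays for Hk2 and Pgk1 and negative for Aldoa and Pgam1. The windows of Hk1, also positive on both arrays by gene mean, held 0 copies. The letters GATAA or TTATC, part of the sequence that GATA factors bind, occurred in windows of 2 members, Hk1 and Aldoa, against 25.47% of all genes. No member window held both motifs. Overlapping matches of a motif and its reverse complement were counted once.

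Gapdh carried the most negative ratio of the measured members and Hk2 the most positive. By gene means, the ratio was negative on both arrays for 4 of 8 members, Gapdh, Aldoa, Tpi1 and Pgam1. It was positive on both for 3, Hk2, Pgk1 and Hk1. On array 2, Aldoa (-0.03), Tpi1 (-0.05), Pgam1 (-0.02) and Hk1 (0.03) lay near 0. Pfkl had opposite signs. Of all 15056 genes with a symbol, 34.1% were negative and 33.7% positive on both arrays. The median over the 8 members was -0.36 (array 1) and -0.01 (array 2), beside 0.01 and -0.01 over all genes. Without Gapdh the remaining 7 members had medians of -0.28 and 0.01, with 3 negative and 3 positive on both arrays. The enzymes of the pathway thus did not share the sign of Gapdh as a group.

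**Figure D1:**
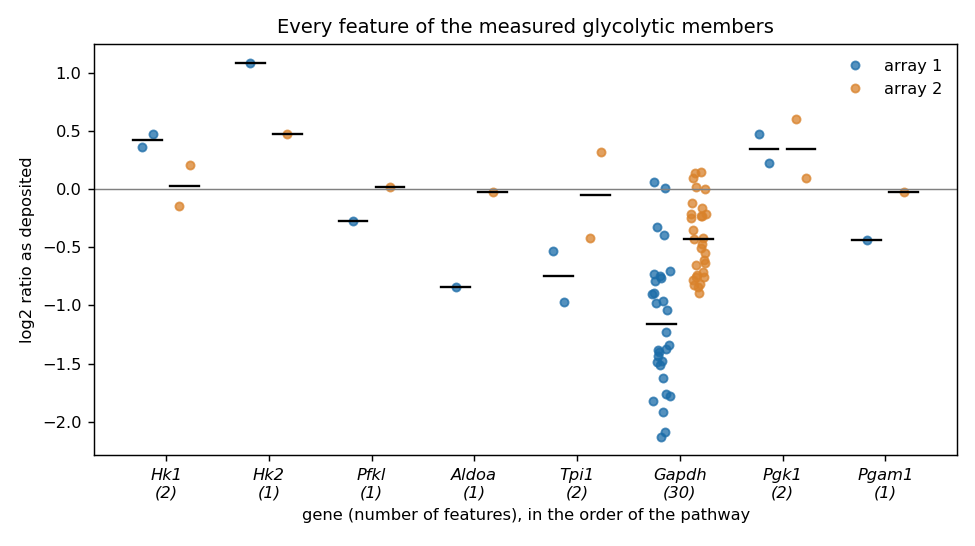
Log2 ratio as deposited (y axis) of each of the 40 features of the measured members, by gene in pathway order (x axis, number of features in brackets), on array 1 (blue) and array 2 (orange), with black bars for the gene means. Gapdh features reach -2.13 (array 1) and -0.90 (array 2), while Hk2 and both Pgk1 features lie above 0 on both arrays.

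At the entry of the pathway, both hexokinases had positive gene means. Hk2, the inducible hexokinase of muscle, fat and proliferating cells, was measured by 1 feature with ratios of 1.09 (array 1) and 0.47 (array 2), a mean of 0.78 ± 0.44 (SD, n = 2). These are 2.12-fold and 1.38-fold. Hk1, the hexokinase found in most tissues, had 2 features, the one at 0.36 (array 1) and -0.15 (array 2), the other at 0.47 and 0.20. The features of Hk1 did not share a sign on array 2, and the gene mean of 0.22 ± 0.28 was smaller than the spread between the arrays. Pfkl, the liver type subunit of phosphofructokinase, stood at -0.28 (array 1) and 0.01 (array 2).

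The middle enzymes, aldolase A and triose phosphate isomerase, differed from 0 mainly on array 1. Aldoa, with 1 feature, had ratios of -0.84 (array 1) and -0.03 (array 2), a mean of -0.43 ± 0.58 (SD, n = 2). Tpi1 had 2 features, of which the first gave -0.53 and -0.42 and the second -0.97 and 0.32. The second Tpi1 feature thus changed sign between the arrays. Its gene mean was -0.40 ± 0.49 (SD, n = 2), again no larger than the spread. Among all genes Aldoa stood at percentile 4.46 (array 1) and 48.6 (array 2), and Tpi1 at percentile 5.92 and 44.6.

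After the GAPDH step the signs parted. Pgk1, phosphoglycerate kinase, which makes the first ATP of the pathway, had 2 features, the one at 0.47 (array 1) and 0.60 (array 2), the other at 0.22 and 0.10. All of these values were positive, and the gene mean was 0.35 on each array, at percentiles 74.95 and 79.0. Pgk1 was the member whose arrays were closest, with an SD of 0.00071 over the gene means, although its features differed by more than that on each array. Pgam1, the phosphoglycerate mutase of most tissues, had 1 feature at -0.44 (array 1) and -0.02 (array 2), a mean of -0.23 ± 0.29 (SD, n = 2). With the median of each array subtracted, Aldoa (0.01) and Pgam1 (0.01) were positive on array 2, and 2 members, Gapdh and Tpi1, remained negative on both arrays. Scaling 48 equal runs of features alike also turned Aldoa on array 2 (0.00).

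Gapdh, which oxidises glyceraldehyde 3-phosphate, was measured by 30 features, all annotated to 1 transcript accession. On array 1 they ran from a lowest of -2.13 through a median of -1.29 to a highest of 0.06, with a mean of -1.16 ± 0.57 (SD over 30 features). On array 2 they ran from -0.90 through -0.45 to 0.15, with a mean of -0.43 ± 0.32. The gene means correspond to 2.24-fold and 1.34-fold, and the mean over arrays was -0.80 ± 0.52 (SD, n = 2). Most features were negative, 28 of 30 on array 1 and 26 of 30 on array 2. On array 1, 17 were at -1 or below, which is 2-fold or more, while 0 were on array 2. Features 2-fold or more negative on both arrays therefore numbered 0, beside 0.254% of all features. Features negative on both arrays numbered 25, beside 34.8% of all features, 1 was positive on both, beside 30.7%, and 4 had opposite signs.

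The ratio on array 1 was below that on array 2 in 28 of the 30 Gapdh features, with a median difference of -0.82. Features that were lower on one array tended to be lower on the other. Across the 30 features Pearson's r was 0.715 and Spearman's rho 0.726, as a description, since the features share the RNA, the arrays and possibly the probe. The sources used here do not tell whether these features are copies of 1 probe. Mouse Gapdh also has many processed pseudogenes, and whether the probes tell them apart is not given either.

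The table order of the features showed where Gapdh lay. Cut into 48 equal runs of 812 consecutive features, the table held 29 of the 30 Gapdh features at positions 3 to 27 of a run. The same was true of the other genes with 20 or more features, called repeated genes here. Of the 654 features of all 13 repeated genes, 604 lay in the first 30 positions of a run, where they made up 41.9% of the 1440 features. Whether a run matches a print-tip group is unknown here. The single Gapdh feature elsewhere, at position 550 of run 29, had ratios of -0.40 (array 1) and -0.22 (array 2). It was closer to 0 than the mean of all Gapdh features on both arrays.

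**Figure D2:**
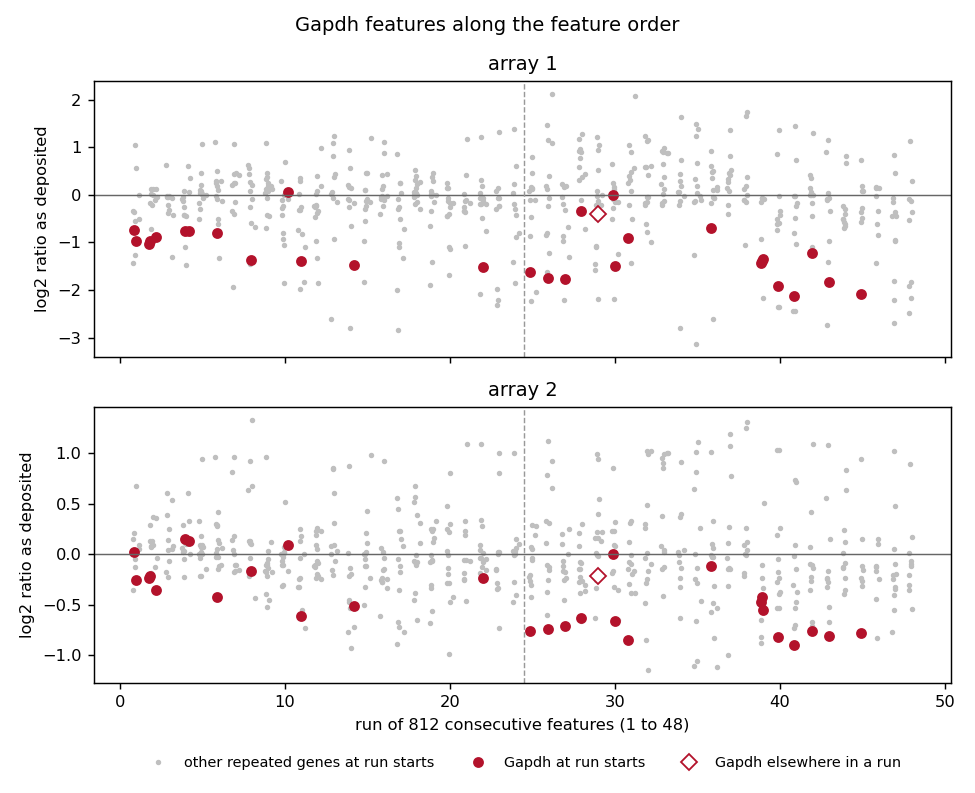
Log2 ratio as deposited (y axis) of Gapdh features (red circles at run starts, open diamond elsewhere) and of the other repeated genes at run starts (grey) along the 48 runs of 812 features (x axis), for array 1 (top) and array 2 (bottom), with a dashed line between runs 24 and 25. Gapdh lies at the lower side of most runs, reaching -2.13 (array 1) and -0.90 (array 2), with features near 0 in runs 10 and 30.

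Within the run starts, Gapdh was compared with its neighbours. The 22 runs with a Gapdh feature at the start also held 7 to 15 features of other repeated genes there. The mean of Gapdh was below the median of these others in 21 of 22 runs on array 1, with a median difference of -1.25, and in 20 of 22 on array 2, with a median difference of -0.41. It was below on both arrays in 20 runs. The exceptions were run 10, where the 1 Gapdh feature stood at 0.06 and 0.09, and, on array 2, run 4. These differences describe the features that chose the set and were not tested.

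Neighbouring Gapdh features did not always agree. In run 30, a feature at position 10 gave 0.01 (array 1) and -0.00 (array 2), while another at position 16 gave -1.49 and -0.66. The features at run 10 and at position 10 of run 30 were the only Gapdh features within 0.1 of 0 on both arrays. The most negative feature on both arrays, in run 41, stood at -2.13 and -0.90.

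Gapdh was more negative in the later runs. In runs 25 to 48 its 17 features averaged -1.31 ± 0.64 (array 1) and -0.60 ± 0.27 (array 2; SDs across the features), and in runs 1 to 24 its 13 features had means of -0.97 ± 0.42 and -0.20 ± 0.24. The later runs minus the earlier ones gave -0.34 (array 1) and -0.40 (array 2). Of the other 12 repeated genes, 4 were lower in the later runs on both arrays, 2 were higher on both and 6 went opposite ways. The same difference was -0.48 and -0.37 for Eef2, a translation elongation factor, and 0.27 and 0.26 for Ywhaz, a 14-3-3 protein. The whole set of features had a larger SD in the later runs, 0.73 against 0.59 in the earlier ones on array 1 and 0.48 against 0.39 on array 2, with medians within 0.02 of each other on each array. The part of this spread in the Gapdh values was not tested.

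Among the 13 repeated genes, Gapdh had the lowest mean over both arrays and the largest share of features negative on both, 83.3%, with Eef2 next at 72.7%. Gapdh was chosen for negative ratios on both arrays, so its low place here describes that choice and is no separate support. It was not the lowest on either array alone. On array 1 Gapdh (-1.16) lay above the beta-2-microglobulin gene B2m (-1.23 ± 1.15, SD over 75 features), and on array 2 Gapdh (-0.43) lay above Eef2 (-0.60 ± 0.32, SD over 22 features). These neighbours in the order lay within the spread of the features. The cytoskeletal gene Actb stood at -0.44 ± 0.77 and 0.15 ± 0.28 over 32 features, and gelsolin, Gsn, at -0.70 ± 0.47 and 0.01 ± 0.29 over 23. Lrp1, a lipoprotein receptor, was at -0.24 and -0.22, Tln1, talin, at -0.14 and -0.13, Rpl13a, a ribosomal protein, at -0.08 and -0.16, and Rpn2, a ribophorin, at -0.12 and -0.10. Tbp, the TATA-binding protein, stood at 0.11 and -0.08, Hprt, a purine salvage enzyme, at 0.01 and 0.10, Sdha, a succinate dehydrogenase subunit, at 0.10 and 0.04, and Ywhaz at 0.73 and 0.70. Gapdh and Ywhaz lay at opposite ends of the order.

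**Figure D3:**
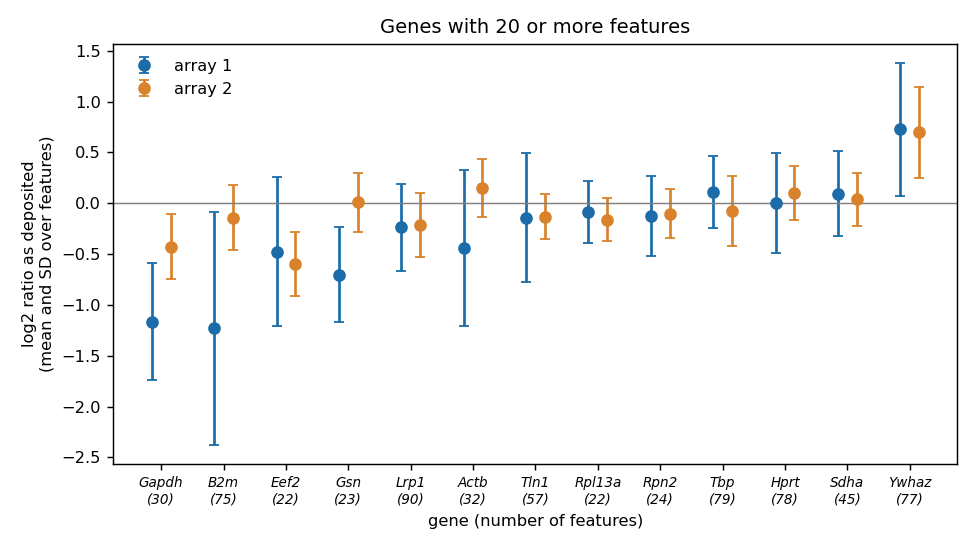
Mean and SD over features of the log2 ratio as deposited (y axis) for the 13 genes with 20 or more features (x axis, number of features in brackets), ordered by the mean over both arrays, on array 1 (blue) and array 2 (orange). Gapdh is leftmost at -1.16 and -0.43, and Ywhaz rightmost at 0.73 and 0.70.

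The genes nearest to Gapdh were sought among 1539 genes with 3 or more features, by Euclidean distance between gene means on the 2 arrays. They were Mea1 (distance 0.16), Uck1 (0.18), Eya1 (0.19), Zfand2b (0.20) and Col11a1 (0.20). Each had 3 features, which did not always lie close together. Those of Eya1 stood at -2.125, -0.726 and -0.337 on array 1 and at -0.814, 0.065 and -0.065 on array 2. Those of Col11a1 ran from -2.415 to -0.042 on array 1. A distance over 2 arrays is a weak measure of likeness.

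Genes of glucose metabolism, hypoxia-inducible genes and reference genes were set beside the members, in 11 related lists that held 132 genes apart from the members. Of these 112 were measured, 36 negative and 35 positive on both arrays, with medians of 0.03 and -0.03. By limma's moderated test on gene means against 0, with Benjamini-Hochberg adjustment over all genes, 1 related gene passed with a negative ratio and 2 with a positive one. This is 2.68% of the related genes, beside 8.26% of all genes, 7.28% positive and 0.983% negative. At an unadjusted p under 0.05 there were 10 negative and 15 positive related genes. Over single features in place of gene means 0% of features passed (0 of 38976, limma), with 2521 negative and 6038 positive at an unadjusted p under 0.05. The lowest adjusted p over features was 0.0512. Cs, Egln3 and Rpe, which passed, have 1 feature each, so their values are the same at both levels and passing at the gene level is no further support.

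**Figure D4:**
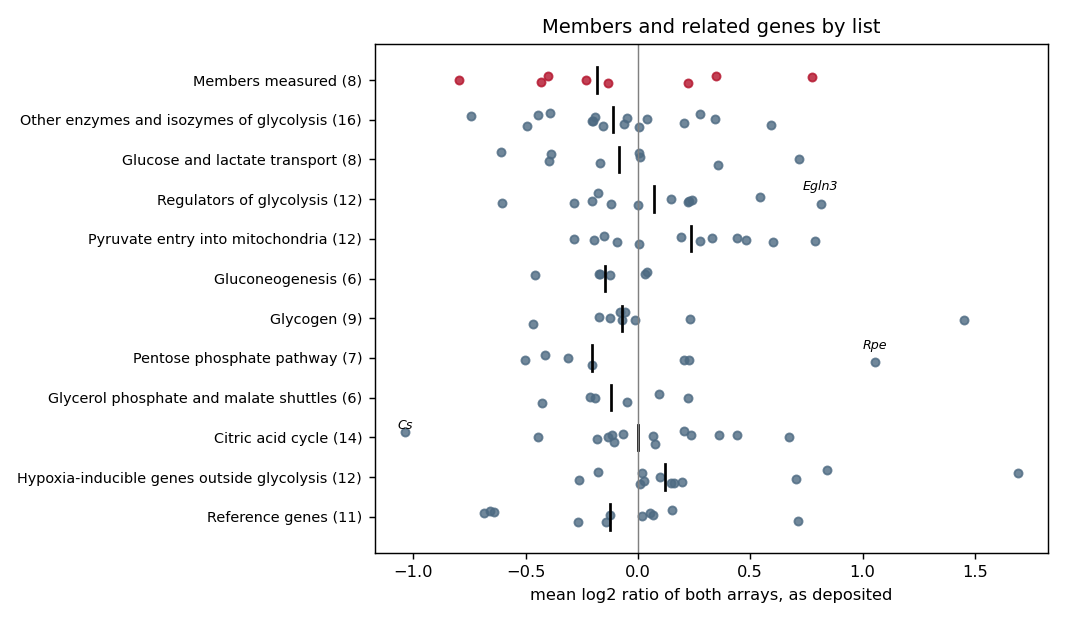
Mean log2 ratio of both arrays as deposited (x axis) for the 8 measured members (red) and the related genes (grey-blue) by list (rows, number measured in brackets), with black bars for medians and names at the genes past limma's gene-level test. Members spread from -0.80 to 0.78, on both sides of 0 like the lists, and Cs, Egln3 and Rpe are the related genes that passed.

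The other enzymes and isozymes of glycolysis had 16 of 22 listed genes measured, 8 negative and 4 positive on both arrays, with 0 past the test. Their medians were -0.11 (array 1) and -0.19 (array 2). Pgam2, the muscle phosphoglycerate mutase, had ratios of -0.55 and -0.93 (mean -0.74 ± 0.27, SD, n = 2; limma adjusted p = 0.0656), the same sign as Pgam1. Pkm, the pyruvate kinase of muscle and proliferating cells, had 2 features, at -0.59 and -0.64 on array 1 and at -0.29 and -0.47 on array 2, with a gene mean of -0.50 (adjusted p = 0.157). Ldhb, the heart type subunit of lactate dehydrogenase, stood at -0.35 and -0.54 (adjusted p = 0.196). Hkdc1, a hexokinase domain protein, had 0.59 and 0.60 (adjusted p = 0.0950). The testis isozyme Gapdhs had gene means of -0.13 and -0.18, smaller in size than those of Gapdh on both arrays.

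Read by step, the genes that phosphorylate glucose had gene means of both signs, with Hk1, Hk2 and Hkdc1 positive on both arrays and Adpgk, an ADP-dependent glucokinase, negative on both (-0.09 and -0.32). For phosphofructokinase, the muscle type Pfkm (0.56 and 0.12) and the platelet type Pfkp (0.49 and 0.06) were positive on both arrays, while Pfkl was not. In the lower part, Gapdh, Gapdhs, Pgam1, Pgam2, Eno2, Pkm, Pklr, Ldhb and Ldhal6b were negative on both arrays. Pgk1 and Ldhc were positive on both, and Pgk2, Bpgm, Eno3 and Eno4 had opposite signs. Several of the negative signs rested on values near 0, with Pgam1 at -0.02 and Eno2 at -0.04 (array 2) and Pklr at -0.04 (array 1). Of all genes, 34.1% were negative and 33.7% positive on both arrays. The features of Hk1, Adpgk, Pfkp, Gapdh, Pklr and Ldhc did not all share a sign. This grouping by step was made after the values were seen.

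Glucose and lactate transporters had 8 of 9 genes measured, 3 negative and 2 positive on both arrays and 0 past the test. Bsg, the chaperone of lactate transporters, stood at -0.71 and -0.51 (mean -0.61; adjusted p = 0.0931, limma). Slc2a8 (-0.40) and the monocarboxylate transporter Slc16a7 (-0.39) were negative, and the liver type glucose transporter Slc2a2 had a mean of 0.72, with 2 features positive and the third negative on both arrays (-0.32 and -0.16). Regulators of glycolysis had 12 of 14 measured, 4 negative and 6 positive. Egln3, a prolyl hydroxylase that marks HIF subunits for decay and is itself induced by hypoxia, passed at 0.71 and 0.92 (mean 0.81 ± 0.15, SD, n = 2; limma adjusted p = 0.0447). Hif1a, the oxygen-regulated subunit of HIF-1, had a mean of 0.54, its partner Arnt -0.29 and Egln2, a related hydroxylase, -0.61, and none of the 3 passed. The features of Hif1a disagreed, at 1.36 and 1.14 for the one and -0.08 and -0.24 for the other, and the Arnt mean rested on 1 of 3 features, at -1.03 and -0.996.

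Hypoxia-inducible genes outside glycolysis had 12 of 14 measured, 2 negative and 3 positive on both arrays and 0 past the test, with medians of 0.05 and 0.19. The mitophagy receptor Bnip3 had ratios of 2.81 and 0.58 (mean 1.69 ± 1.58, SD, n = 2; adjusted p = 0.0846, limma). Vegfa, the endothelial growth factor, stood at 1.23 and 0.45, and Car9, a carbonic anhydrase, at 0.92 and 0.48. The Car9 value rests on 1 of its 2 features, at 1.89 and 1.05, the other being at -0.04 and -0.08. Lox, a lysyl oxidase, was at -0.39 and -0.13 and Ddit4, a stress-induced inhibitor of mTORC1, at -0.16 and -0.20. The remaining 7 genes had opposite signs on the arrays.

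Where pyruvate enters mitochondria, 12 of 14 genes were measured, 3 negative and 7 positive on both arrays and 0 past the test. Pdhb, a subunit of pyruvate dehydrogenase, had a mean of 0.79 (limma adjusted p = 0.0518), the pyruvate carrier Mpc1 0.60, the phosphatase Pdp2 0.48 and Dld 0.44. In the citric acid cycle, with 14 of 15 measured, 3 were negative and 5 positive. Citrate synthase, Cs, which starts the cycle, passed at -1.38 and -0.69 (mean -1.04 ± 0.49, SD, n = 2; limma adjusted p = 0.0420). Cs was the related gene called with a negative ratio, and with feature medians in place of means 0 related genes were negative and called. Cs has 1 feature, so its ratios were the same under both settings and only the fit over all genes differed. Ogdh (0.67), Dlst (0.36) and Fh1 (-0.45) did not pass, and the 2 features of Ogdh had opposite signs, 2.38 and 1.05 for the one and -0.40 and -0.34 for the other. The glycerol phosphate and malate shuttles, 6 of 6 measured, had 3 negative and 1 positive and 0 past the test. Mdh1 stood at -0.43, Got1 at -0.21, Mdh2 at -0.19 and Got2 at 0.09. The features of Got2 disagreed in sign, with one at -0.265 and -0.392 and another at 0.534 and 0.416.

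The pentose phosphate pathway, which branches off at glucose 6-phosphate, had 7 of 9 genes measured, 3 negative and 3 positive on both arrays. Rpe, ribulose phosphate epimerase, passed at 1.46 and 0.65 (mean 1.06 ± 0.57, SD, n = 2; limma adjusted p = 0.0466). Transaldolase, Taldo1 (-0.50), transketolase, Tkt (-0.42), and H6pd (0.23) did not pass, and the 2 features of Tkt had opposite signs, -1.48 and -0.93 for the one and 0.47 and 0.28 for the other. Glycogen genes had 9 of 11 measured, 3 negative and 2 positive, and 0 passed. The branching enzyme Gbe1 had the largest absolute mean of these, 1.45 ± 1.18 (SD, n = 2), with Pygb at -0.47, Pygm at 0.23 and Pgm2 at -0.08. Of 6 gluconeogenesis genes, all had opposite signs on the arrays. Reference genes other than Gapdh had 11 of 13 measured, 4 negative and 3 positive and 0 past the test, among them Ppia (-0.66), Gusb (-0.64), B2m (-0.69) and Ywhaz (0.71).

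Markers of cell types with different use of glucose are given beside the members. For their signs, 34.1% of all genes were negative and 33.7% positive on both arrays. White adipocyte markers, 9 of 10 measured, had medians of -0.81 (array 1) and -0.14 (array 2) and ranged from -1.77 to 0.54 and from -0.41 to 0.997, with 4 negative and 2 positive on both arrays. Skeletal muscle markers, 9 of 10 measured, had medians of -0.18 and -0.20, ranging from -1.10 to 0.64 and from -0.85 to 0.61, with 5 negative and 2 positive. Luminal markers, 10 of 10, had medians of -0.08 and -0.06, ranging from -0.90 to 0.51 and from -0.45 to 0.49, with 6 negative and 2 positive. Some of these signs rest on values near 0, such as Epcam at -0.07 and -0.01 and Elf3 at 0.001 on array 2. Basal markers, 7 of 8, had medians of -0.08 and -0.17, ranging from -1.31 to 1.10 and from -0.62 to 0.51, with 4 negative and 1 positive. Krt5 passed at -0.97 (limma adjusted p = 0.0494), while its partner keratin Krt14 stood at 0.81 and did not pass (adjusted p = 0.0690). Erythroid markers, 4 of 7, had medians of 0.27 and -0.04, ranging from -0.77 to 1.17 and from -0.41 to 0.46. The adipocyte list was mixed, with a median of gene means of -0.08, and the ratios of all features spread more on array 1 (SD 0.67 against 0.44). The part of these cell types in the members' ratios was not tested.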

How the data were processed

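Null and het mammary gland RNA was compared on 2 spotted oligonucleotide arrays. The deposited values, read here as log2, are log ratios of the channels after the authors' print-tip lowess in Acuity 4.0, as the design text states. The log base, direction, centring, background correction and spot filters were not stated, and another base would rescale every value and fold. Missing values numbered 0, and 0 columns were left unused. Precision is limited by the number of arrays.

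The platform annotation gave 22973 features 1 symbol, 0 several and 16003 none. Entrez IDs matched all 22973 to RefSeq (GRCm38.p6) for names, giving 15056 genes. Features of a gene were averaged.

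The test against 0 used limma 3.58.1 in R 4.3.3 (intercept alone, two-sided, adjusted p threshold 0.05). There was 1 residual degree of freedom, and the prior added 5.41 at the gene level. On simulated data with 15056 genes, 16 of 50 genes shifted by 1 were called, and 50 of 50 at each shift of 2, 3 and 4. In the same simulated set 21 unshifted genes were called. With 38976 simulated features, 0 of 50 shifted by 1, 48 of 50 shifted by 2 and 15 unshifted features were called. Simulated ratios were drawn from limma's fitted prior, with the same variance and the same shift on both arrays. The deposited ratios spread more on array 1 (SD 0.67 against 0.44), so these counts may not carry over to them. Figures used matplotlib 3.10.9.

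The members and lists were chosen with earlier results of these data known. Named were all members, Gata3, the repeated genes, the 5 genes nearest to Gapdh and, per related list, up to 4 genes of one sign with the largest absolute mean plus those past the test. Gapdhs, Pfkm, Pfkp, Eno2, Pklr, Ldhal6b, Ldhc, Pgk2, Bpgm, Eno3, Eno4, Adpgk, Ddit4 and the single features of genes were named after their values were seen. Alternatives tried were median subtraction, equal median absolute deviation, quantile normalization, scaling 48 runs alike, feature medians, a maximum difference of 1 between arrays, a robust prior, an adjusted p of 0.1, the turned sign and leaving out each array.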

Additional observations from a re-analysis of the deposited data

How the results depend on the processing

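The settings on the Gapdh features and their neighbours were chosen after seeing the data. With the sign turned, the means became 0.80 for Gapdh, 0.43 for Aldoa, 0.40 for Tpi1, 0.23 for Pgam1, 0.13 for Pfkl, -0.22 for Hk1, -0.35 for Pgk1 and -0.78 for Hk2, and the members' median 0.18. On a single array the Gapdh mean was -1.16 (array 1) or -0.43 (array 2), and that of Pfkl -0.28 or 0.014. Gapdh stood at -0.31 by the feature outside the run starts, -0.85 without the 2 features within 0.1 of 0, and -0.73 relative to the other repeated features of its run starts. The choice of Gapdh for negative ratios on both arrays fixes its sign on either array. Members negative on both arrays fell to 2 with medians subtracted.

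Counts past limma's test moved more. Related genes numbered 3, and 11 with medians subtracted, 13 with equal median absolute deviation, 18 after quantile normalization, 8 with the 48 runs scaled alike, 17 without features whose arrays differed by more than 1 and 15 at an adjusted p of 0.1. Feature medians in place of means lowered them to 2 (0 negative, 2 positive) and all genes to 942, and the robust prior left 3 related genes and 1183 of all genes. For the settings from subtracted medians to an adjusted p of 0.1, in the same order, all features gave 2724, 5013, 5113, 3362, 7452 and 4929 in place of 0. Among all genes, subtracted medians gave 1793, equal deviation 1941 and quantile normalization 2404, in place of 1244. The 48 runs scaled alike gave 1465, the dropped features 2815 and an adjusted p of 0.1 gave 2113. Under each of these settings the counts of related genes and of all genes both rose. Dropping disagreeing features removes those of largest spread by construction, and an adjusted p of 0.1 is a looser threshold on the same fit. Equal deviation and quantile normalization give both arrays the same scale. Apart from the dropped features and the looser threshold, the cause of the changed counts was not tested. With 1 array left out there was no residual degree of freedom and no test. Both genotypes lay on each array, so each ratio is already a paired comparison, and the test against 0 uses this pairing. There was 1 group of arrays.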
